A study of Mus musculus with 5 samples.

Results

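The 58 genes described here encode Rab GTPases in mouse. They were chosen by symbol alone: every gene of the deposited normalized table whose symbol is Rab, a number and at most a short suffix was taken, which gave 58 of 27526 genes. The symbol rule itself uses no expression value. Rab9b, whose symbol also has this form, is present only in the count tables, with 1 read over all libraries, and was left out.

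Rabs are small membrane-anchored switches that label the compartments of the secretory and endocytic routes. An exchange factor loads a Rab with GTP, the active form recruits effectors such as tethers and motors, and a GTPase-activating protein returns it to the inactive state, which can then leave the membrane. In blood cells, Rabs of the regulated secretory route place granules and lysosome-related organelles at the plasma membrane, and different myeloid lineages use different members for it.

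RNA had been profiled from leukaemia stem cells of mice carrying AML1-ETO9a, a truncated form of the fusion of the transcription factor RUNX1 (AML1) with RUNX1T1 (ETO). All 5 libraries came from this model and from cells labelled positive for the surface receptor Kit. They were grouped by Plcg1, which encodes phospholipase C gamma 1: 2 libraries were labelled Plcg1 +/+ (wild-type 1 and wild-type 3) and 3 were labelled Plcg1 -/-, a conditional deletion (deleted 2, deleted 4 and deleted 6). The sources used here do not give the driver of the deletion, the age of the mice or whether each library came from a separate mouse. The p-values thus reflect only how far these samples spread, which may be technical variation.

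The libraries held 37306507 to 57133771 gene counts. Plcg1 itself measured 22.1 and 34.0 CPM (counts scaled to a common library total) in the wild-type pair, against 53.0, 26.9 and 37.1 CPM in the deleted trio. It was thus not lower under the deleted label, and a count over a whole gene does not check the loss of part of it. Kit measured 26.8 and 32.1 CPM in the wild-type pair, against 672, 304 and 3.08 CPM in the deleted trio, so the RNA of the labelled surface marker was nearly absent from deleted 6. The protein was not measured here. Over all genes deleted 6 stood apart, with Spearman correlations across genes of 0.854 to 0.910 to the other libraries, against 0.988 within the wild-type pair and 0.983 between deleted 2 and 4. It was also the only library on its sequencing lane, as was wild-type 1, so for both of them lane and library cannot be told apart. Each comparison is therefore given with and without deleted 6. Values of the wild-type pair are listed in the order 1, 3, and those of the deleted trio in the order 2, 4, 6.

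With TMM scaling most Rab genes lay somewhat higher in the deleted trio, least in deleted 2 and most in deleted 6, but none passed the adjusted test across all 5 libraries. Among Rab genes with a wild-type mean of at least 1 CPM, the median log2 ratio to that mean was 0.05, 0.32 and 0.48 in deleted 2, 4 and 6. Over all tested genes with that minimum it was -0.04, -0.04 and -0.05. Rab27b, Rab37 and Rab38 were high in deleted 2 and 4 only, Rab27a was lower in all 3 deleted libraries, and Rab27a and Rab44 were nearly absent from deleted 6. Without deleted 6, edgeR called Rab15, Rab17, Rab22a, Rab27b, Rab37 and Rab38 higher and Rab24 and Rab27a lower. Rab27b entered that test only through the deleted libraries, where it is high.

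The family was expressed broadly. At least 1 CPM was reached by 46 Rab genes in each library of the wild-type pair, against 49, 47 and 46 in the deleted trio. Per kilobase of exon, the scale on which genes can be compared, the highest mean levels belonged to Rab2a (114 CPM per kb), Rab1b (113), Rab7 (108.2), Rab1 (108.1) and Rab8b (84.6). These means pool libraries that differ: in the wild-type pair alone Rab8b ranked 11 in level per kb, and in deleted 6 it ranked 2. The first 4 were also the highest 4 in the wild-type pair, in another order. The ranking used merged exon length. By the length of the longest annotated transcript, 4 of the 5 genes stayed among the 5 highest. Rab1, Rab1b and Rab2a act between the endoplasmic reticulum and the Golgi, Rab7 governs late endosomes and lysosomes, and Rab8b serves transport to the plasma membrane.

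Rab2a varied little, at 251 and 226 CPM in the wild-type pair, against 228, 251 and 257 CPM in the deleted trio. Deleted minus wild-type, it gave a log2 fold change of 0.04 ± 0.18 (SE), with a 95% interval of -0.42 to 0.50. The genotypes overlapped fully, and the sign turned without wild-type 3 (-0.029). Rab1b was at 243 and 244 CPM against 238, 227 and 334 CPM, and its log2 fold change of 0.13 ± 0.24 became -0.055 without deleted 6. Rab1 was at 363 and 354 CPM against 367, 467 and 501 CPM, and Rab7 at 241 and 208 CPM against 206, 291 and 467 CPM. In both, deleted 6 was the highest library and deleted 2 lay within or next to the wild-type values.

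**Figure D1:**
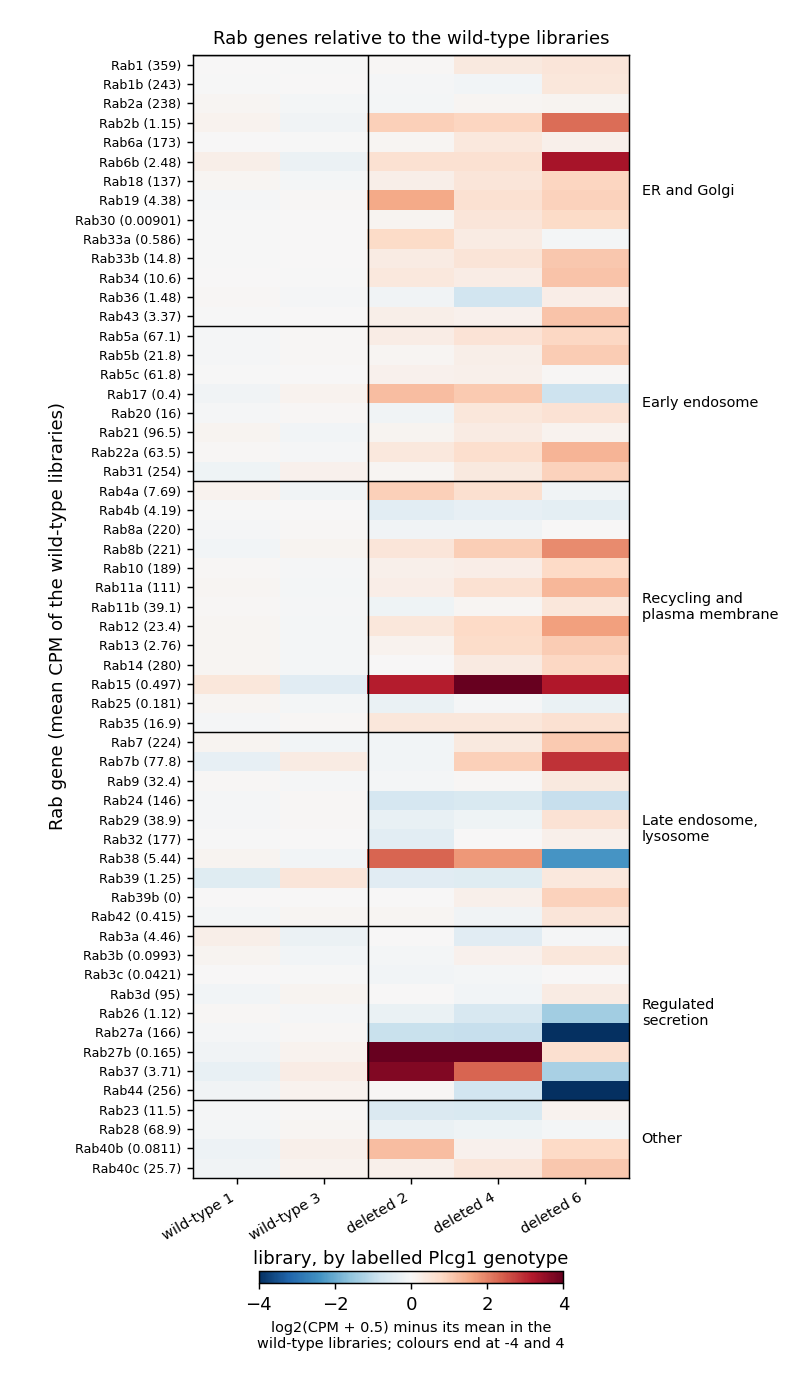
Heat map of all 58 Rab genes (vertical axis, grouped by role, with the mean CPM of the wild-type libraries in brackets) in the 5 libraries (horizontal axis). Colour is log2(CPM + 0.5) minus its mean in the wild-type libraries and ends at -4 and 4, red above and blue below. Most genes of the Golgi, early endosome and recycling groups are pale red in deleted 6, while Rab27a, Rab44, Rab38 and Rab37 are blue there and Rab27b, Rab37 and Rab38 are red in deleted 2 and 4.

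Against the genotype contrast, 54 of the 58 genes had enough reads to be tested. Rab3b, Rab3c, Rab25 and Rab39b did not, and Rab27b, Rab30 and Rab40b reached the filter through the deleted libraries, since they had at most 13 counts in either wild-type library. With all 5 libraries edgeR's quasi-likelihood test called 0 of 54 Rab genes at an adjusted p under 0.05, as it called 0 of 16120 genes (0% of all genes). The smallest adjusted p of a Rab gene was 0.178, for Rab15. At an unadjusted p under 0.05, 10 Rab genes were higher under the deleted label, where 9.44% of all genes were, and 1 was lower, where 5.42% of all genes were. Those 10 include Rab27b and Rab30, which add no support because of how they reached the filter.

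In 23 of 54 Rab genes (42.6%) the whole deleted trio exceeded the wild-type pair, against 22.4% of all genes tested, and in 5 (9.26%) every deleted library lay below, against 23.7%. The 5 were Rab4b, Rab24, Rab26, Rab27a and Rab28. The 23 include Rab27b and Rab30, which reached the filter through the deleted libraries, so these genes add no support. By plain totals 20 Rab genes lay above (16.3% of all genes) and 10 below (30.8%). Without deleted 6 the counts were 28 above (28.8%) and 10 below (29.4%), and without wild-type 1 there were 8 below (32.3%). The median log2 fold change was 0.50 over the Rab genes and 0.01 over all genes tested, and 42 of 54 were above 0. Deleted 6 was the highest of the 5 libraries in 33 of 54 Rab genes (61.1%), against 36.2% of all genes. Scaled by plain totals instead of TMM factors, it was the highest in 20 of 54, against 20.6% of all genes. Without deleted 6 the medians were 0.23 and -0.01.

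Without deleted 6, edgeR called 8 of 52 Rab genes (15.4%). Rab27b is one of them, and it reached the filter only through the deleted libraries, where it is high. Higher under the deleted label were 6 of the 8, Rab15, Rab17, Rab22a, Rab27b, Rab37 and Rab38, where 7.89% of all genes were called higher. Lower were 2 of the 8, Rab24 and Rab27a, where 5.07% of all genes were called lower. Other tests moved these counts. Across all 5 libraries DESeq2 called 3 of 54 Rab genes (8.8% of all genes): Rab15 and Rab27b higher, Rab24 lower. limma-voom with sample weights called 6 of 54 (13.5% of all genes): Rab5a, Rab8b, Rab12, Rab15 and Rab22a higher, Rab24 lower. edgeR with no filter called only Rab15 (0.919% of all genes), and edgeR within lane 4, which held wild-type 3, deleted 2 and deleted 4, called only Rab27b (2.03% of all genes). Without deleted 6, DESeq2 called 14 Rab genes (18.5% of all genes), limma-voom 7 (12.5%) and edgeR with median-ratio factors 9 (13.2%), and all 3 of these tests called Rab15, Rab24, Rab27a, Rab27b, Rab37 and Rab38, as well as Rab17. These 3 were chosen after the data were seen.

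**Figure D2:**
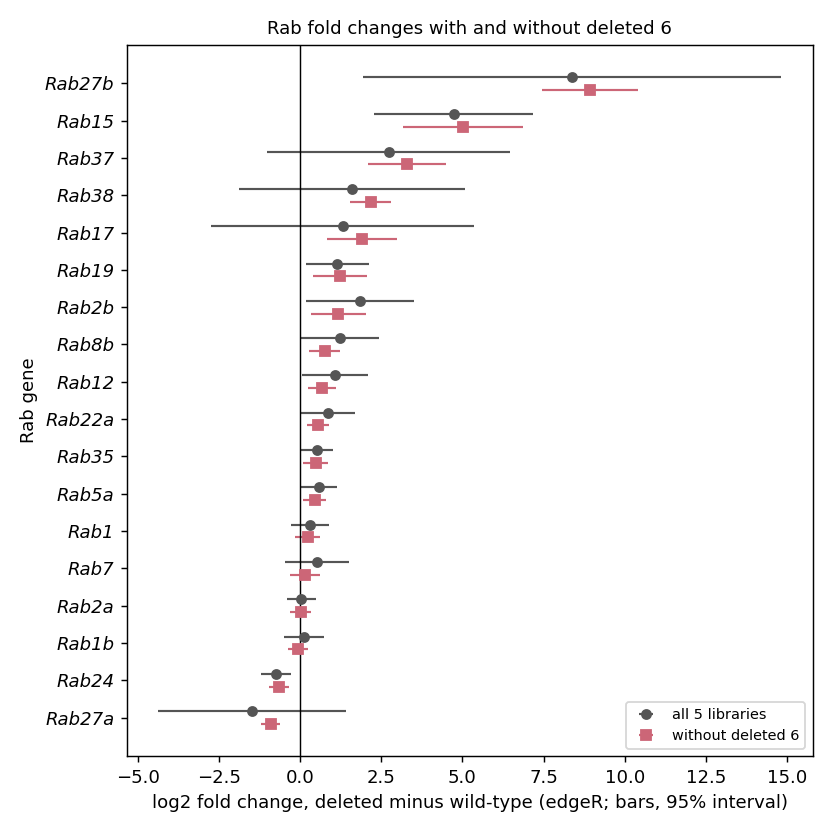
Log2 fold change, deleted minus wild-type (horizontal axis, edgeR), of the named Rab genes (vertical axis), with all 5 libraries (grey circles) and without deleted 6 (red squares); bars are 95% intervals. The intervals of Rab27b, Rab37, Rab38, Rab17 and Rab27a shorten most when deleted 6 is left out, and those of Rab1, Rab1b, Rab2a and Rab7 include 0 in both fits.

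Besides the GTP switch, the family shares a lipid anchor, which is attached to cysteines at or near the end of the protein. In the longest annotated coding sequence of each gene, 43 of 58 genes had at least 2 cysteine codons among the last 4, and the other 15 had 1. In 20 genes the cysteines flanked 1 other residue, in 14 they were adjacent at the end, and in 9 they were adjacent with further codons after them, 1 codon in 3 genes and 2 codons in 6 genes. Only the last 4 codons were counted, so an adjacent pair that starts further inside, as in Rab37, counts as 1 cysteine. The last 12 codons before the stop are printed below, on the coding strand, for 7 of the 8 members whose expression passed the test without deleted 6, with Rab8b, Rab7b and Rab44 for their differences in level. Cysteine codons among the last 4 are in capitals.
Rab15: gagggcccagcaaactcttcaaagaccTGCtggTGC
Rab17: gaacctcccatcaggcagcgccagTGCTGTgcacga
Rab22a: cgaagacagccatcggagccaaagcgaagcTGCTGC
Rab24: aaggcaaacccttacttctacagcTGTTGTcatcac
Rab27a: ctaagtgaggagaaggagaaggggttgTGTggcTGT
Rab37: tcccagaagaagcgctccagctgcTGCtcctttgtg
Rab38: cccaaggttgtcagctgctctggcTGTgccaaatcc
Rab8b: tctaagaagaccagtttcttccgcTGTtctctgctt
Rab7b: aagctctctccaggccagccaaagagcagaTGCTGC
Rab44: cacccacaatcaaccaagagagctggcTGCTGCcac

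Rab22a and Rab7b end in 2 adjacent cysteines, Rab15 and Rab27a in 2 that flank 1 residue, Rab17, Rab24 and Rab44 carry them slightly inside the end, and Rab37, Rab38 and Rab8b have 1 among the last 4. In Rab37 the codon just before those 4 is also a cysteine codon. On GRCm38 with GENCODE M21, Rab15 lies at chr12:76797960-76822908 and Rab24 at chr13:55319743-55321946, both on the reverse strand. Rab27a lies at chr9:73044854-73097629, Rab37 at chr11:115091431-115162236 and Rab38 at chr7:88430273-88491572, all on the forward strand. All 58 genes were found in that annotation.

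The regulated secretion group had the largest median size of log2 fold changes of the 6 role groups, 1.15, against 0.56 over all Rab genes tested. Without deleted 6 these medians were 0.68 and 0.41. In both fits the group's median was the value of Rab26, which had only 5 to 59 counts per library. Rab27b, which entered the test only through the deleted libraries, is also in the group. Rab27a docks secretory lysosomes and granules at the plasma membrane. It measured 162 and 170 CPM in the wild-type pair, against 89.2, 86.8 and 3.84 CPM in the deleted trio. All deleted libraries lay below both wild-type libraries, by 1.88-fold for the mean of deleted 2 and 4 and by 43.1-fold for deleted 6. The log2 fold change was -1.47 ± 1.14 (edgeR adjusted p = 0.543) with all libraries and -0.90 ± 0.12 (edgeR adjusted p = 0.00665) without deleted 6.

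Rab27b, its close relative on mast cell granules and platelet dense granules, went the other way. Its 4 and 13 counts in the wild-type pair amounted to 0.0964 and 0.234 CPM, against 120, 50.8 and 0.543 CPM in the deleted trio. Deleted 2 and 4 were far above the rest, and deleted 6 was near the wild-type libraries. The log2 fold change was 8.38 ± 2.54 (edgeR adjusted p = 0.276) with all libraries and 8.94 ± 0.62 (edgeR adjusted p = 0.000967) without deleted 6. Both values rest on those few wild-type counts, so the size of the fold is uncertain. The gene entered the test only because it was high in deleted libraries, so its call adds no support. Per kilobase, Rab27b made up 0.0216% and 0.0501% of the summed Rab27a and Rab27b level in the wild-type libraries. It made up 32.8% in deleted 2 (95% Wilson interval 32.0 to 33.6), 17.5% in deleted 4 (16.9 to 18.2) and 4.88% in deleted 6 (3.25 to 7.27). These intervals cover counting error only. The coding sequences of the pair are 69.3% identical, with a longest shared run of 22 bases, shorter than the 50-base reads.

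Rab37, a secretory granule Rab linked to mast cells, measured 2.82 and 4.59 CPM in the wild-type pair, against 52.8, 19.95 and 1.18 CPM in the deleted trio. Deleted 2 and 4 were high and deleted 6 was the lowest library. The log2 fold change was 2.73 ± 1.47 (edgeR adjusted p = 0.423) and, without deleted 6, 3.30 ± 0.50 (edgeR adjusted p = 0.00933). Rab44, an unusually large Rab expressed in granule-bearing leukocytes, measured 228 and 283 CPM in the wild-type pair, against 260, 151 and 1.11 CPM in the deleted trio. It was 231-fold below the wild-type mean in deleted 6 alone, and without that library its log2 fold change was -0.30 ± 0.26 (edgeR adjusted p = 0.524).

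Rab3d, which sits on secretory granules, was at 88.2 and 102 CPM against 96.1, 87.5 and 120 CPM, and the genotypes overlapped. Rab26 was low throughout, from 0.113 CPM in deleted 6 to 1.18 CPM in wild-type 1. Rab3a lay between 3.04 and 5.28 CPM, and Rab3b and Rab3c reached at most 0.317 CPM in any library. Of the 7 secretory Rabs tested, 1 had all deleted libraries above and 2 had them below the wild-type libraries (22.4% and 23.7% of all genes), with a median log2 fold change of -0.19. The 1 above was Rab27b, which reached the filter only through the deleted libraries.

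The make-up of the secretory group differed by library. Rab44 and Rab27a held 40.5% and 37.5% of its summed CPM per kb in wild-type 1 and 44.1% and 34.5% in wild-type 3. In deleted 6, Rab3d alone held 89.0%, against 18.9% to 25.1% in the other libraries. The group held 9.17% and 10.3% of the summed CPM per kb of all Rab genes in the wild-type pair, against 9.74%, 5.92% and 1.76% in the deleted trio. Deleted 2 was thus within the wild-type range, while deleted 4 and deleted 6 were below it.

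**Figure D3:**
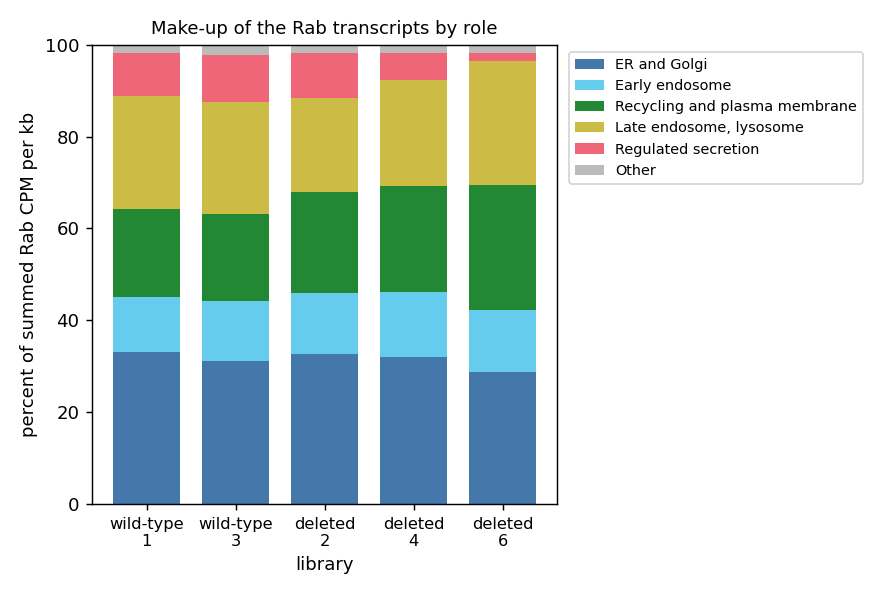
Stacked bars of the percent of summed Rab CPM per kb (vertical axis) held by each role group in each of the 5 libraries (horizontal axis). The regulated secretion group narrows from 9.17% and 10.3% in the wild-type libraries to 1.76% in deleted 6, and the recycling and plasma membrane group widens from 19.2% and 18.9% to 27.1%.

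Marker genes of other cell types moved with these Rabs. The 11 mast cell and basophil markers summed to 63.6 and 108 CPM in the wild-type pair, against 11943, 5338 and 35.8 CPM in the deleted trio. All 11 were above both wild-type libraries in deleted 2 and 4 (28.8% of all genes). The libraries high in Rab27b, Rab37 and Rab38 were thus those high in this list, which includes Cpa3 and Fcer1a. Mrgprb2, the last of the 11, was at 0 in the wild-type pair and in deleted 6. This pattern was not particular to the mast cell list. The erythroid markers, at most 12.7 CPM in sum, were also highest in deleted 2 and 4, and 5 of those 6 were above both wild-type libraries there. The 9 neutrophil and promyelocyte granule markers summed to 13745 and 15639 CPM in the wild-type pair, against 9902, 8612 and 31.4 CPM in the deleted trio, so the lowest sum was in the library with the lowest Rab27a and Rab44. In deleted 6 all 9 were at their lowest of the 5 libraries (37.9% of all genes), and none was at 0. The part of these cell types in the Rab differences was not tested, and in bulk RNA fewer cells of a type and less RNA per cell cannot be told apart.

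**Figure D4:**
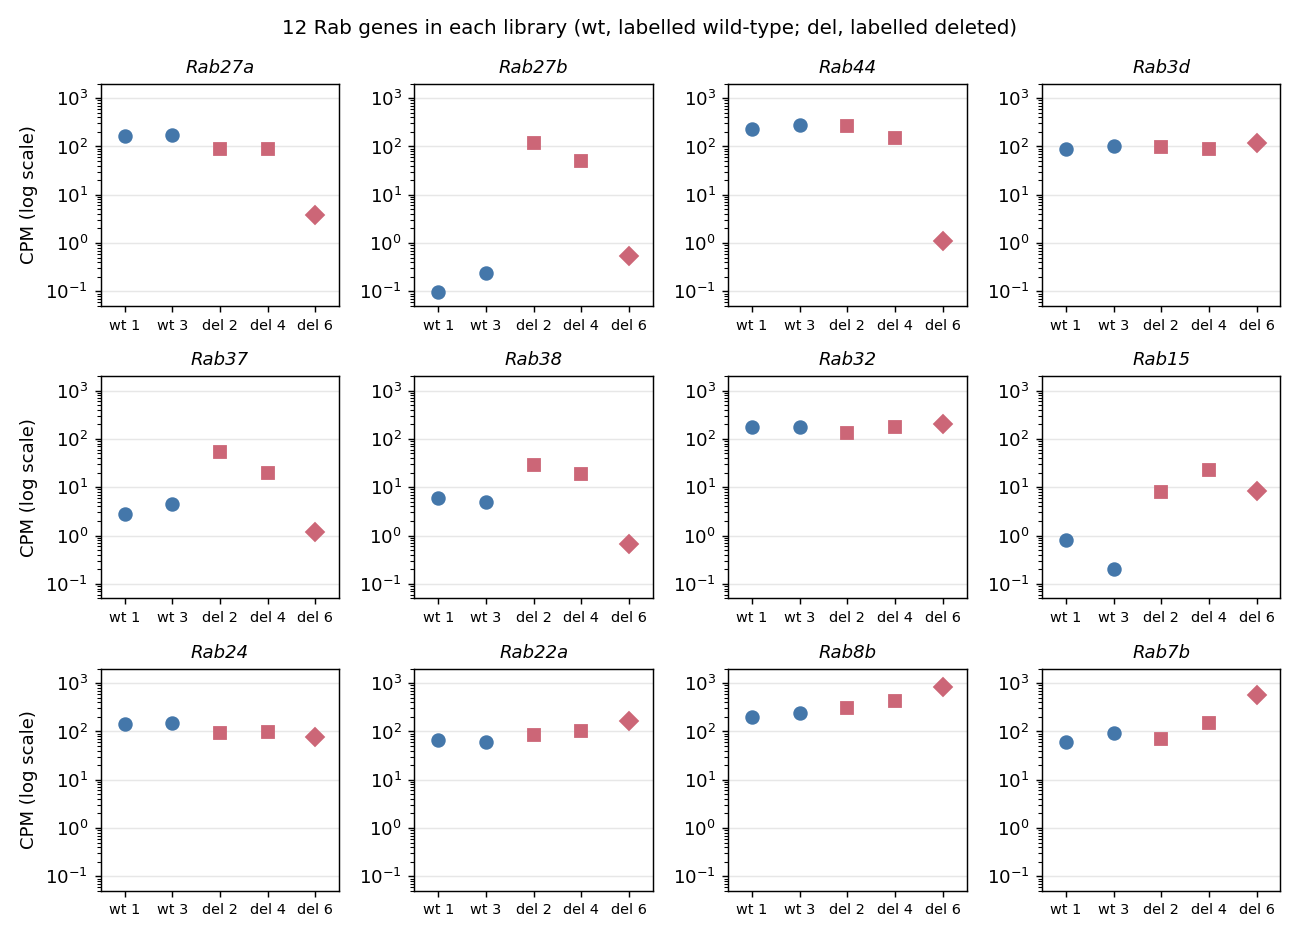
CPM on a log axis (vertical) of 12 Rab genes in each library (horizontal; wt is labelled wild-type, del is labelled deleted; 1 point per library, no error bar). Rab27b, Rab37 and Rab38 are highest in deleted 2 and low in deleted 6, Rab27a and Rab44 are lowest in deleted 6, and Rab3d and Rab32 stay between 87.5 and 203 CPM.

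Among the 10 late endosome, lysosome and autophagosome Rabs, Rab38 and Rab32 both carry cargo to lysosome-related organelles such as melanosomes. Rab38 measured 5.93 and 4.95 CPM in the wild-type pair, against 29.4, 19.1 and 0.656 CPM in the deleted trio. As for Rab37, deleted 2 and 4 were high and deleted 6 was the lowest. The log2 fold change was 1.59 ± 1.37 (edgeR adjusted p = 0.577) and, without deleted 6, 2.17 ± 0.27 (edgeR adjusted p = 0.00455). Rab32 was at 174 and 179 CPM against 132, 178 and 203 CPM, a log2 fold change of -0.05 ± 0.24 with overlapping genotypes. Rab38 made up 4.81% and 3.94% of the summed Rab32 and Rab38 level per kb in the wild-type pair, against 24.8%, 13.8% and 0.477% in the deleted trio.

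Rab24, which is associated with autophagy, measured 140 and 153 CPM in the wild-type pair (mean 146.4 ± 8.74, SD, n = 2), against 90.8, 95.7 and 76.9 CPM in the deleted trio (mean 87.8 ± 9.77, SD, n = 3). Every deleted library was lower, and deleted 6 did not stand apart from the other two. Its log2 fold change was -0.74 ± 0.18 (edgeR adjusted p = 0.212) and, without deleted 6, -0.64 ± 0.13 (edgeR adjusted p = 0.0241). Its value is uncertain, since 49.6% of its 50-base words also occur in Prelid1, which overlaps it on the opposite strand, and the kits do not mark strand. Prelid1 was at 220 and 201 CPM against 203, 205 and 218 CPM.

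Promoter windows of RefSeq (GRCm38.p6, 250 bases before to 50 after a gene's start) were found for 47 of the 58 genes, 59 windows in all. They were searched on both strands for 4 short motifs, none of which holds another. The windows of Rab24 and Rab27a are printed because these were the 2 members lower under the deleted label without deleted 6, and capitals mark the matches. The Rab24 window and the second Rab27a window hold CACGTG, the core letters of MITF and TFE factor sites. The first Rab27a window holds TGTGGT, the core letters of RUNX factor sites.
Rab24 (reverse strand, chr13:55321931-55322230): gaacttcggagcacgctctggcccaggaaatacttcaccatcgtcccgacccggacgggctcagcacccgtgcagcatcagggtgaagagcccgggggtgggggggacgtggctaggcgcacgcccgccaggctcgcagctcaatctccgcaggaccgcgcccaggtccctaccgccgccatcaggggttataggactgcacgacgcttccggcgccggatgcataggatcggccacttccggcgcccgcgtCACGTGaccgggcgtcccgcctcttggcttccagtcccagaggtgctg
Rab27a, first window (forward strand, chr9:73044560-73044859): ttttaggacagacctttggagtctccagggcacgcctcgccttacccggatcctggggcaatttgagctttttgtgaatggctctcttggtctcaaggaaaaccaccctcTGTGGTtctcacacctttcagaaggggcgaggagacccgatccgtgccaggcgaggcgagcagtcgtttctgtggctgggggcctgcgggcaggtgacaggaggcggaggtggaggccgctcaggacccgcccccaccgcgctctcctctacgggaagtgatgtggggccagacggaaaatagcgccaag
Rab27a, second window (forward strand, chr9:73063898-73064197): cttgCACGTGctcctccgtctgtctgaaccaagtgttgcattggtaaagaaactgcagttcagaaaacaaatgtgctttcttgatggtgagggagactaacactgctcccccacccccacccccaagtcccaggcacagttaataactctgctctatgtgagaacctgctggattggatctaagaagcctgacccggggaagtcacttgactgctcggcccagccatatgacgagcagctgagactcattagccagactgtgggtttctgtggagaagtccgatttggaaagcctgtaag

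CACGTG was found in 10.2% of the Rab windows and in 7.15% of all 32851 windows. The 6 Rab genes with it were Rab20, Rab21, Rab23, Rab24, Rab27a and Rab5a, whose log2 fold changes did not share a sign. The RUNX letters were in 16.9% of Rab windows and 16.8% of all. The third motif, GAGGAAG (core letters of PU.1 sites), was in 13.6% of each.

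The last motif searched, the GATA factor core letters AGATAA, was in 3.39% of Rab windows and 11.2% of all windows. A match describes letters, not binding.

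Rab7b, which returns cargo from late endosomes to the Golgi, was at 60.7 and 94.9 CPM against 70.7, 146 and 572 CPM. Deleted 6 was 7.35-fold above the wild-type mean while deleted 2 lay between the wild-type libraries. This gave a log2 fold change of 1.76, with a 95% interval of -0.68 to 4.19. Its share of the summed Rab7 and Rab7b level per kb was 12.5% and 20.5% against 16.3%, 22.1% and 40.9%. Rab9 and Rab29 overlapped between genotypes, with log2 fold changes of 0.13 and 0.09, and so did Rab39 and Rab42, both below 2 CPM in every library. Rab39b had no reads in 3 of the libraries. None of the 9 tested members of the group had all deleted libraries above the wild-type libraries, 1 had them below (22.4% and 23.7% of all genes), and the median log2 fold change was 0.13.

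The recycling and plasma membrane group held the member with the smallest p. Rab15, a Rab of endocytic recycling best known from neurons, had 33 and 11 counts in the wild-type pair, which amounted to 0.796 and 0.198 CPM, against 7.81, 23.1 and 8.32 CPM in the deleted trio. Each deleted library was above both wild-type libraries, including deleted 6. In the test, its log2 fold change was 4.73 ± 0.96 (edgeR adjusted p = 0.178) with all 5 libraries and 5.02 ± 0.77 (edgeR adjusted p = 0.0101) without deleted 6.

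Rab8b measured 202 and 240 CPM in the wild-type pair, against 310, 433 and 817 CPM in the deleted trio. Its libraries did not overlap between genotypes, and the log2 fold change was 1.23 ± 0.47 (edgeR adjusted p = 0.325). Without deleted 6 it was 0.76 ± 0.20 (edgeR adjusted p = 0.0537). Its paralogue Rab8a was at 211 and 229 CPM against 197, 201 and 222 CPM and overlapped. The share of Rab8b in the summed Rab8a and Rab8b level per kb was 48.6% and 50.9% in the wild-type pair, against 60.8%, 68.1% and 78.5% in the deleted trio.

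Rab12, which directs recycling cargo to lysosomes, was at 24.8 and 22.0 CPM against 32.4, 41.1 and 73.9 CPM. Rab35, which acts in fast recycling, was at 16.2 and 17.6 CPM against 23.3, 23.5 and 25.9 CPM. In both, every deleted library was above the wild-type libraries, with log2 fold changes of 1.07 ± 0.40 and 0.52 ± 0.19 that missed the adjusted threshold of edgeR with and without deleted 6. Rab11a, the central Rab of recycling endosomes, was at 117 and 104 CPM against 133, 167 and 277 CPM, and Rab4b at 4.17 and 4.22 CPM against 2.98, 3.21 and 3.10 CPM. The counts of Rab4b are uncertain, since 58.1% of its 50-base words also lie in other genes. Rab10, which serves exocytosis and recycling, was at 195 and 182 CPM against 216, 225 and 330 CPM. Rab14, between the Golgi and endosomes, was at 297 and 264 CPM against 280, 356 and 498 CPM. Rab10 did not overlap between genotypes and Rab14 did. Rab4a measured 8.53 and 6.85 CPM in the wild-type pair, against 15.4, 12.2 and 6.83 CPM in the deleted trio, and Rab11b and Rab8a overlapped. Of the 12 tested members of the group, 7 had all deleted libraries above and 1, Rab4b, below (22.4% and 23.7% of all genes), and the median log2 fold change was 0.55.

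**Figure D5:**
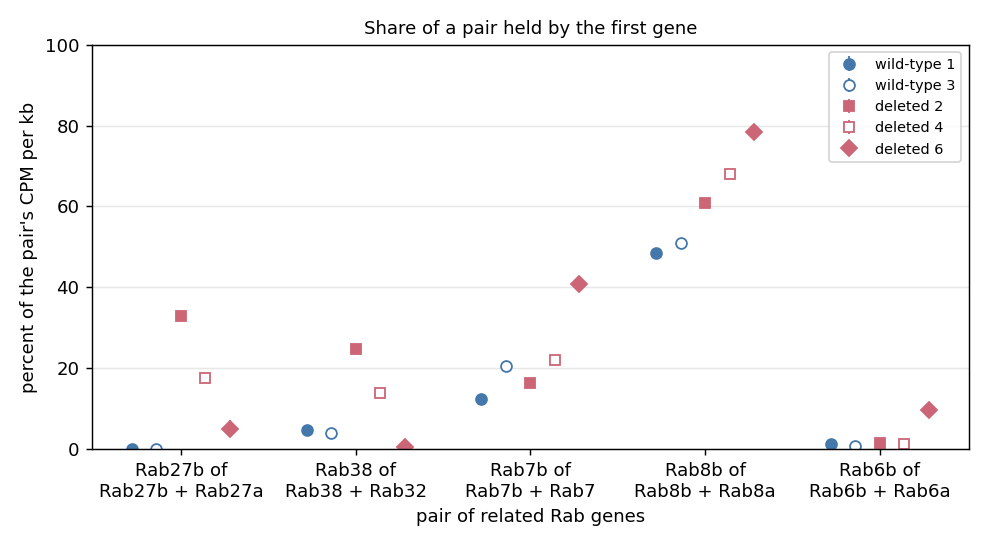
Percent of a pair's summed CPM per kb held by the first-named gene (vertical axis) for 5 pairs of related Rab genes (horizontal axis) in each library; bars, mostly within the symbols, are 95% Wilson intervals for counting error. Rab27b and Rab38 take their highest shares in deleted 2 (32.8% and 24.8%), and Rab7b, Rab8b and Rab6b in deleted 6 (40.9%, 78.5% and 9.59%).

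In the early endosome group, Rab22a, which acts between early and recycling endosomes, measured 65.5 and 61.5 CPM in the wild-type pair, against 85.1, 100 and 163 CPM in the deleted trio. Every deleted library was higher. Its log2 fold change was 0.87 ± 0.33 (edgeR adjusted p = 0.322) and, without deleted 6, 0.56 ± 0.14 (edgeR adjusted p = 0.0493). Rab5a, the Rab of early endosome fusion, was at 64.6 and 69.5 CPM against 82.8, 99.1 and 120 CPM, and its log2 fold change of 0.59 ± 0.22 missed the threshold of edgeR in both fits. Rab5c, of the same subfamily, was at 61.1 and 62.5 CPM against 69.6, 71.9 and 63.6 CPM, and Rab5b at 20.9 and 22.7 CPM against 23.1, 25.9 and 44.8 CPM. Each of the 3 Rab5 genes had its deleted libraries above both wild-type libraries, by small margins in Rab5b and Rab5c.

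Rab17, known from epithelial transcytosis, was near the detection limit, with 13 and 27 counts in the wild-type pair, against 93, 72 and 0 in the deleted trio. The count of 0 allows up to 3 counts, 0.0678 CPM on the TMM scale used here. It passed only without deleted 6, with a log2 fold change of 1.90 ± 0.45 (edgeR adjusted p = 0.0410). Rab31, a relative of Rab22a, was at 222 and 286 CPM against 263, 330 and 474 CPM, and it overlapped, as did Rab20 and Rab21. Of the 8 members of the group, 4 had all deleted libraries above, none below (22.4% and 23.7% of all genes), and the median log2 fold change was 0.50.

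Of the 14 Rabs of the route from the endoplasmic reticulum through the Golgi, 10 had all deleted libraries above the wild-type libraries and none below (22.4% and 23.7% of all genes), with a median log2 fold change of 0.64. The 10 include Rab30, which reached the filter only through the deleted libraries. None passed the adjusted test of edgeR with or without deleted 6. Rab19, a Golgi Rab, was at 4.19 and 4.58 CPM against 13.4, 6.91 and 8.84 CPM, a log2 fold change of 1.15 ± 0.39. Rab2b, the rarer partner of Rab2a, was at 1.30 and 0.991 CPM against 2.66, 2.45 and 7.24 CPM, and 57.0% of its 50-base words lie in the overlapping genes Gm43766 and Tox4, so its counts are uncertain. Rab6b, the minor partner of Rab6a, was at 2.97 and 2.00 CPM against 3.99, 3.96 and 28.5 CPM. Deleted 6 was 11.5-fold above the wild-type mean in Rab6b, and deleted 2 and 4 were close to it. Rab30 had 0 and 1 counts in the wild-type pair, against 3, 11 and 16 in the deleted trio, too few for a fold change. Rab18, of the endoplasmic reticulum and lipid droplets, was at 144 and 130 CPM against 162, 190 and 249 CPM. Rab33b, which acts in the Golgi and in autophagosome formation, was at 14.7 and 14.8 CPM against 18.6, 21.3 and 31.6 CPM. Both had every deleted library above the wild-type libraries, as had Rab6a, Rab34 and Rab43, of which Rab43 shares 74.5% of its 50-base words with other genes, while Rab33a and Rab36 overlapped.

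The 4 Rabs in none of these groups were Rab23, Rab28, Rab40b and Rab40c. Rab23, a Rab of cilia, measured 11.2 and 11.9 CPM in the wild-type pair, against 7.62, 7.42 and 12.8 CPM in the deleted trio. Deleted 2 and 4 were low and deleted 6 was high. Rab28 was at 65.1 and 72.6 CPM against 57.4, 61.0 and 64.7 CPM, lower in every deleted library but by little, with a log2 fold change of -0.17. Rab40c, which recruits an ubiquitin ligase, was at 23.3 and 28.2 CPM against 29.3, 36.0 and 54.5 CPM, and Rab40b had less than 1 CPM throughout.

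Summed over the family, Rab transcripts came to 4171 and 4272 CPM in the wild-type pair, against 4447, 5024 and 6656 CPM in the deleted trio. By plain totals the sums were 4638 and 4589 CPM against 4755, 5064 and 5152 CPM, so most of the excess of deleted 6 over deleted 4 depended on the scaling. Going from TMM to plain totals shifted every gene of deleted 6 by -0.35 on the log2 scale. Among the 47 Rab genes with a wild-type mean of at least 1 CPM, 15 were at least 2-fold above it in deleted 6, against 5 in deleted 2 and 3 in deleted 4. At least 2-fold below it were 0 in deleted 2, 2 in deleted 4 and 5 in deleted 6, the last being Rab26, Rab27a, Rab37, Rab38 and Rab44. Over all tested genes with the same minimum, 5.27%, 6.33% and 17.2% were above in deleted 2, 4 and 6. The shares below were 7.08%, 6.18% and 21.8%.

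Macrophage markers were highest in sum in deleted 6. The 11 found summed to 4604 and 4831 CPM in the wild-type pair and to 7083, 12879.5 and 25002 CPM in the deleted trio, most of it Gpnmb, a lysosomal glycoprotein. Of the 11, 3 had every deleted library above the wild-type pair and 1 below (22.4% and 23.7% of all genes), and none was at 0. Deleted 6 was the highest of the 5 libraries in 5 of the 11 (36.2% of all genes) and the lowest in 3 (37.9%). Deleted 2 and 4 were both above the wild-type pair in 3 (28.8% of all genes). The 6 proliferation markers summed to 1358.5 and 1534 CPM against 1015, 967 and 81.1 CPM, all 6 lower in every deleted library (23.7% of all genes). Platelet markers summed to 75.8 and 63.2 CPM against 226, 372 and 395 CPM, and 5 of the 8 were above both wild-type libraries in deleted 2 and 4. Erythroid markers summed to 2.00 and 2.16 CPM against 12.7, 4.28 and 1.11 CPM, and 5 of the 6 were above in deleted 2 and 4 (28.8% of all genes). Lymphoid markers lay between 0.407 and 105 CPM in sum. Their part in the Rab differences was not tested.

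The genes that control Rabs were counted in 4 lists. None of 150 tested genes was called with all 5 libraries, and 25 of the 150 were called by edgeR without deleted 6, where 13.0% of all genes were. The 25 include Mlph, Sytl2 and Sytl3, which entered the test only through the deleted libraries, so these genes add no support. Taking an unadjusted p of 0.05 as the limit, 9.44% of all genes were higher and 5.42% lower, and 7.89% and 5.07% were called higher and lower without deleted 6. Among the 8 genes that load, prenylate or extract Rabs, 2 higher genes and no lower one had an unadjusted p under 0.05, with a median log2 fold change of 0.20. Rabac1, a membrane protein that binds prenylated Rabs, measured 80.4 and 76.6 CPM in the wild-type pair, against 127, 121 and 181 CPM in the deleted trio. It passed without deleted 6 (log2 fold change 0.68 ± 0.12, edgeR adjusted p = 0.0183), and Chm, the escort protein for prenylation, did not (28.1 and 29.8 CPM against 39.6, 42.8 and 51.6 CPM). Rabif was at 57.3 and 49.6 CPM against 59.0, 61.5 and 77.8 CPM, and Rabggtb overlapped between genotypes.

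Of 48 exchange factors, 6 higher and 2 lower genes had an unadjusted p under 0.05, with a median log2 fold change of 0.04. Without deleted 6, 5 were called higher and 2 lower, 14.6% against 13.0% of all genes. Dennd5b, of the DENN domain exchange factors, measured 6.36 and 5.37 CPM in the wild-type pair, against 1.07, 0.434 and 0.430 CPM in the deleted trio. All deleted libraries were far lower (log2 fold change -3.18 ± 0.55, edgeR adjusted p = 0.1498, and -2.94 ± 0.47, edgeR adjusted p = 0.0113, without deleted 6). Dennd2d, also of this class, was at 37.8 and 48.4 CPM against 15.9, 22.6 and 7.98 CPM. Rabgef1, the exchange factor of Rab5, was at 37.7 and 45.0 CPM against 60.8, 65.1 and 99.6 CPM, and Trappc8 and Dennd4c were also higher in every deleted library. Hps1, lower in every deleted library, did not pass without deleted 6 (edgeR adjusted p = 0.162).

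Of 40 GTPase-activating proteins, 5 higher and 1 lower genes had an unadjusted p under 0.05, with a median log2 fold change of 0.30. Without deleted 6, 3 were called higher and 2 lower, 12.5% against 13.0% of all genes. Rabgap1l measured 44.3 and 43.9 CPM in the wild-type pair, against 13.8, 11.9 and 8.57 CPM in the deleted trio. Its log2 fold change of -1.95 ± 0.26 had an edgeR adjusted p of 0.131, and without deleted 6 it was -1.77 ± 0.16 with an edgeR adjusted p of 0.00187. Its relative Rabgap1 was at 65.7 and 69.7 CPM against 97.6, 88.1 and 123 CPM, and Tbc1d4 at 9.04 and 10.8 CPM against 19.4, 21.6 and 29.7 CPM. Tbc1d16 was also higher, and Tbc1d7 and Tbc1d2b lower, in every deleted library.

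Of 54 effectors tested, 12 higher and 1 lower genes had an unadjusted p under 0.05, with a median log2 fold change of 0.37. Without deleted 6, 9 were called higher and 3 lower, 22.2% against 13.0% of all genes. This list holds Mlph, Sytl2 and Sytl3, which entered the test only through the deleted libraries. They thus add no support to the counts of higher genes, the median or the 22.2%. Mlph, which links Rab27a to myosin Va, measured 0.0723 and 0.0180 CPM in the wild-type pair, against 4.33, 2.42 and 1.27 CPM in the deleted trio. It had only 3 and 1 counts in the wild-type pair, so no fold is given. It entered the test only through the deleted libraries, where it is high, so its call adds no support. Rabep1 and Eea1, effectors of Rab5, were higher in every deleted library, Rabep1 from 50.6 and 49.5 CPM to 87.7, 92.4 and 131 CPM and Eea1 from 45.5 and 46.9 CPM to 70.9, 90.1 and 119 CPM. Rabepk, which binds Rab9, was lower in each, at 46.2 and 41.8 CPM against 28.7, 26.7 and 22.2 CPM. Lrrk1, a kinase of the LRRK family, was also lower in each, and Lrrk2 overlapped between genotypes.

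Other effectors of Rab27 in this list are given after their values were seen. Sytl2 measured 0.0482 and 0.144 CPM in the wild-type pair, against 6.45, 3.76 and 0 CPM in the deleted trio, and Sytl3 measured 0.0482 and 0.108 CPM against 11.3, 3.51 and 0.158 CPM. Both had the pattern of Rab27b, high in deleted 2 and 4 alone. They entered the test only through these libraries, so their calls without deleted 6 add no support. Unc13d, which works with Rab27a in granule release, was at 84.7 and 120 CPM against 103, 72.9 and 15.1 CPM, lowest in deleted 6 as Rab27a was. Sytl4, Sytl5, Myrip and Exph5 had too few reads to be tested.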

How the data were processed

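Per the labels' protocols, RNA was extracted with Trizol and made into libraries with SMART-Seq v4 and Nextera XT kits. Reads were single-end. The submitters' processing notes name bcl2fastq 1.8.4, STAR (no version), DESeq2 1.12.4 and the mm10 genome. The sources used here do not give the annotation or the counting settings.

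The authors deposited whole-number read counts per gene for each library (46603 genes), a table of normalized signal, which equals those counts over 1 size factor per library in 100% of genes, and a table on a log2 scale that was not used. The normalized table of 27526 genes gave the symbols that define the family. Rows naming no gene stayed out of all totals: 5.89% to 8.09% of reads had no feature, 2.36% to 2.78% were ambiguous, 2.48% to 4.13% did not align and 13.0% to 15.1% aligned more than once. A count of 3 corresponds to 0.0525 to 0.0804 CPM on plain totals.

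Groups follow the genotype in the labels. After filterByExpr and TMM scaling, each gene was tested with the quasi-likelihood F test of edgeR (edgeR 4.0.16, limma 3.58.1, R 4.3.3) on genotype alone. Benjamini-Hochberg adjustment covered all genes, with a threshold of 0.05. Standard errors are the log2 fold change over the square root of F. CPM uses TMM-scaled totals, and levels per kb use merged exon length from GENCODE M21. DESeq2 1.42.0, limma-voom, median-ratio factors, other filters, lane 4 alone and leaving out each library were alternatives. Only the edgeR fit was checked on simulated counts, for recovery of fold changes that had been set. The simulated spread was a fixed setting, not estimated from these libraries, so the check gives no error rate for them. No pair of libraries was a copy (chi-square per gene of 50.2 or more).

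The family, the role groups, the lists and the rule for named genes were chosen with earlier results of these data known. The rule names the 10 tested members with the smallest p, the members called without deleted 6, the 5 with the highest level per kb and their paralogues of the same number, and up to 3 genes each way from each list of Rab regulators. Coordinates and coding sequences are from GENCODE M21 (GRCm38, the build of mm10), and promoters from RefSeq.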

Additional observations from a re-analysis of the deposited data

How the results depend on the processing

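No paired analysis was possible because the genotypes share no replicate number. Over all genes edgeR called 0 genes, DESeq2 1419, limma-voom 2177, edgeR without a filter 278 and within lane 4 342, and leaving out each library gave 0 to 2045, the highest without deleted 6. For the Rab genes these counts were 0, 3, 6, 1 and 1, with 0 to 8 on leaving out a library. For the regulators they were 0, 11, 23, 3 and 3, with 0 to 25. Without deleted 6, DESeq2 called 14 Rab genes, limma-voom 7 and edgeR with median-ratio factors 9. Leaving out a wild-type library leaves 1, which is then assumed to vary like the deleted libraries. The Rab genes with every deleted library below were 5, 10 by plain totals, and 5 to 10 on leaving out a library. By plain totals the summed Rab CPM was 4638 in wild-type 1, 4589 in wild-type 3 and 5152 in deleted 6. Of the named genes' log2 fold changes, 181 settings kept sign and side of the threshold, 19 passed it where the fit of all 5 libraries had not, and 4 turned sign: Rab2a without wild-type 3 (-0.029; 0.117 at most, without wild-type 1), and Rab1b by limma-voom (-0.074), without deleted 6 (-0.055; 0.235 at most, without deleted 4) and within lane 4 (-0.057). Apart from fewer libraries or genes in the settings built that way, the cause was not tested. The calls that need deleted 6 to be left out rest on 4 libraries.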
